A study of Homo sapiens with 12 samples.

Results

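The 45 genes described here act in G2 phase and mitosis, the part of the cell cycle in which duplicated chromosomes are condensed, attached to a spindle and divided between daughter cells. They are a list of named genes from the textbook machinery of mitosis, and no measured value enters the rule, although earlier results of these data were known when it was drawn up. All 45 were found in both deposited tables, of 55514 and 44389 genes. All 45 passed the filter of a mean of at least 1 TPM (a transcript abundance corrected for length and for the library total). Their products take part in the cyclin-CDK engine, the spindle assembly checkpoint, the kinetochore, the spindle, cytokinesis and chromosome structure. Most of these genes are switched on late in the cycle by the MuvB complex with B-MYB and FOXM1, and their transcripts fall when cells leave the cycle. In a proliferating leukaemia line such as Jurkat they serve as a readout of cycling cells.

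The 12 RNA-seq libraries came from Jurkat, an established human line from a T-lineage acute leukaemia, grown in RPMI with fetal calf serum. In the first table, 3 libraries titled Hobit, with the genotype label Dox-induced ZNF683, were set beside 3 Mock libraries. In the second, 3 libraries of Hobit cells given doxycycline (Dox+) were set beside 3 of Hobit cells without it (Dox-), the labels giving the concentration as 1 ug/uL, a unit that could not be checked here and may be an error. Hobit is the product of ZNF683, a zinc finger repressor known from effector and tissue-resident lymphocytes. The labels do not say whether Mock cells received doxycycline, what promoter drives ZNF683, whether a line is 1 clone, or whether replicates come from separate cultures. The p-values therefore reflect the spread of these libraries alone, which may be technical.

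Values are scaled TPM, the deposited TPM divided by a factor per library, and means are given ± SD with n = 3 libraries per group. TPM keeps no read number, so depth is unknown and no counting interval is given. The factors ran from 0.943 to 1.09 in the first table and from 0.583 (Dox- library 1) to 1.224 (Dox- library 2) in the second. In Dox- library 1 a single short RNA, AL135790.1, took 50.7% of all TPM, against at most 12.8% in the other 5, which lowered every other deposited value there. The ZNF683 transcript itself was low and does not check the labels: it had 1.19, 1.81 and 1.03 scaled TPM in the ZNF683 libraries against 0.758, 1.46 and 0.653 with Mock (exact permutation p = 0.4, two-sided). With doxycycline it had 0.396, 0.691 and 0.543, and without it 0.198, 0.195 and 0.382, groups that did not overlap (exact permutation p = 0.1, the smallest that 3 against 3 libraries allow). All 11 T lineage markers had a mean of at least 1 TPM in both tables, summing to 4038 to 5078 scaled TPM per library in the first. In the second they summed to 3576 to 3653 in Dox+ libraries and 1320 to 2869 in Dox- libraries, lowest in Dox- library 2. Markers of myeloid cells summed to at most 1.79, of epithelial cells to at most 6.07 and of fibroblasts to at most 14.8 scaled TPM. Of 5 B cell markers, CD79A alone accounted for most of the signal, at a mean of 44.8 in the first table and 20.9 in the second.

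As a group the mitotic genes were abundant and their order of level was much the same in both tables. HMGB2, a chromatin protein that bends DNA, was the highest, with a mean over 6 libraries of 1087 scaled TPM in the first table and 1122 in the second. BUB3, a checkpoint protein that docks BUB1 and BUBR1 at kinetochores, came next at 761 and 548.5. CCNB1 (cyclin B1, 532) and NUSAP1 (a microtubule bundler, 525) followed in the first table and did not differ beyond their spread. The lowest member was CENPA, the centromeric histone H3 variant, at 25.7 in the first table, and CDC25C, a phosphatase that activates CDK1, at 31.0 in the second. The rank correlation of the 45 levels between tables was 0.968 (Spearman, across genes, a description only, since the same genes and annotation enter both). Within the first table the coefficient of variation over the 6 libraries ran from 3.69% for NUF2, a kinetochore subunit, to 50.1% for CENPA. In the second it ran from 5.49% for KIF23, a central spindle motor, to 37.9% for MKI67, which encodes the proliferation marker Ki-67.

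**Figure D1:**
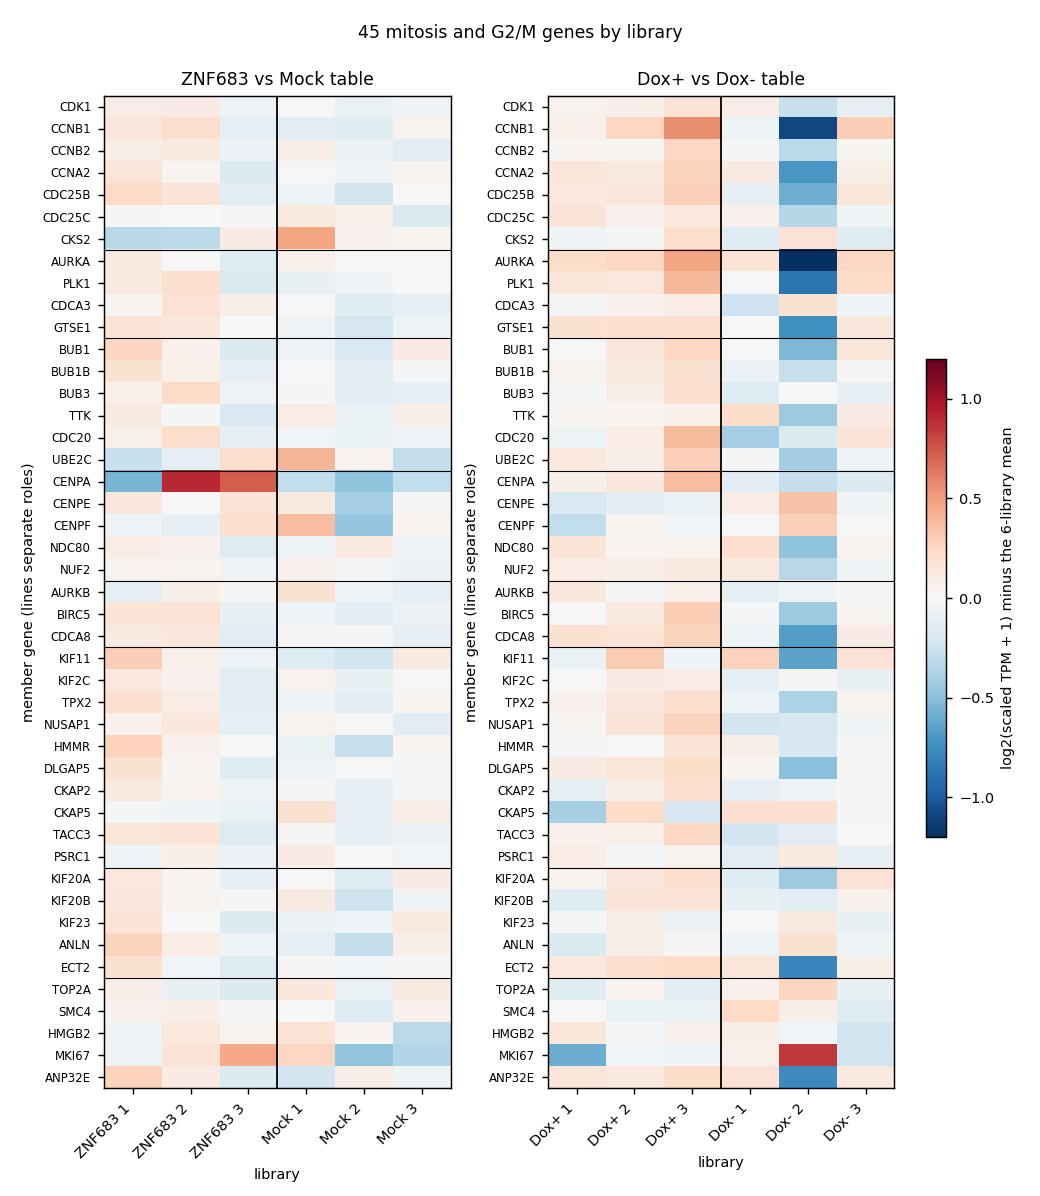
Each row is a member gene and each column a library. Colour gives log2(scaled TPM + 1) minus the mean of that gene over the 6 libraries of its table, and lines separate the roles. CENPA stands out in ZNF683 libraries 2 and 3, and Dox- library 2 holds most of the strong colours on the right, with AURKA and CCNB1 low and MKI67 high.

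Promoters of the members held 2 short motifs at higher shares than all RefSeq promoters, given here as a description with no test. RefSeq start sites on GRCh38.p14 gave 47 promoter windows for 37 of the 45 genes, each of 300 bases (some of 1 gene overlap). A CCAAT box (CCAAT or ATTGG), the letters read by NF-Y, lay in 32 of the 47 windows (68.1%), against 34.6% of all 35116 windows. The cell cycle genes homology region, or CHR (TTTGAA or TTCAAA), the letters read by MuvB, lay in 29 of 47 (61.7%), against 15.2% of all. Both were present in 23 windows (48.9%), against 5.9% of all. The motifs were searched on both strands, can share at most 1 base, and are matches of letters, not measured sites. The 250 bases before the start are shown for 4 members on which the results below turn, with CCAAT box and CHR matches in capitals. CENPA and MKI67 carry both motifs, as does PLK1, while CCNB1 carries 2 CCAAT boxes and no match to these CHR letters in its window. The positions are chr5:69166900-69167149 (plus strand) for CCNB1, chr16:23678639-23678888 (plus strand) for PLK1, chr2:26785806-26786055 (plus strand) for CENPA and chr10:128126424-128126673 (minus strand) for MKI67.
CCNB1: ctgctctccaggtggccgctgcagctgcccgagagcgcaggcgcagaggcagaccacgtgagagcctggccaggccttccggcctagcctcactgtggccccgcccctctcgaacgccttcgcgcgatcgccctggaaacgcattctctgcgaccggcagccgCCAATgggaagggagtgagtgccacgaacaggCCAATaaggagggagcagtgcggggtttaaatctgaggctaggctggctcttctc
PLK1: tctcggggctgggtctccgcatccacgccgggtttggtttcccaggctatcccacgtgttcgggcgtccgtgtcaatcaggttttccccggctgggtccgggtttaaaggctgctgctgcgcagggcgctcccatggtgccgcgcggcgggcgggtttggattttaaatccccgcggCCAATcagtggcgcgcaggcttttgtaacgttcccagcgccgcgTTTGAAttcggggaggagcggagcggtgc
CENPA: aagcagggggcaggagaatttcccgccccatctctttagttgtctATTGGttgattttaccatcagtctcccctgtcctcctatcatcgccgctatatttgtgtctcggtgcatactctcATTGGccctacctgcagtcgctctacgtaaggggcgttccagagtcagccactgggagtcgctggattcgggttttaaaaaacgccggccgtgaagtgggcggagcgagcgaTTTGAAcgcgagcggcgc
MKI67: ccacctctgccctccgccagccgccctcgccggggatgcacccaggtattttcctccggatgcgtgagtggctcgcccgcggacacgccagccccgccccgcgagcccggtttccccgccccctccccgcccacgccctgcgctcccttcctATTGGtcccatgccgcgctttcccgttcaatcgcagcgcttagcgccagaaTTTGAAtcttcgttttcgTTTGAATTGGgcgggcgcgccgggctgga

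The first comparison set the libraries labelled ZNF683 against Mock. No member passed the test: 0 of 45 reached a limma adjusted p of 0.05, against 0.0422% of all 16588 genes tested (7 genes; 0.0241% higher and 0.0181% lower). None of the 45 had an unadjusted limma p under 0.05, against 14.5% of all genes (9.15% higher and 5.39% lower). The member changes were small, with 35 positive and 10 negative on the log2(scaled TPM + 1) scale and a median of 0.079, beside 0.072 over all genes tested, of which 61.9% were positive. With factors taken only from genes of at least 1 TPM the median was -0.0054 and 21 of 45 were positive, so the sign of this small shift rested on the scaling. The 2 groups did not overlap for 2 members, both higher with ZNF683, and for no member lower, where 11.8% and 7.24% of all genes did so. Single libraries moved these counts: without ZNF683 library 3, 22 members were apart and higher (35% of all genes) and the median was 0.15, without Mock library 1 or Mock library 3, 6 were (18.6% and 25.8%), and without ZNF683 library 1, 3 were (15.4%) and the median was 0.035. Without ZNF683 library 2, 3 were apart and higher (13.1%). Groups separate more easily with fewer libraries, and the share of all genes apart rose whichever library was left out.

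In the engine that drives entry into mitosis, 5 of 7 genes were positive and the median log2 change was 0.080. CDK1, the kinase itself, had 406, 409.9 and 368 scaled TPM in ZNF683 libraries and 380.3, 362 and 370.3 in Mock libraries. Its groups overlapped, and its log2 change was 0.09 ± 0.11 (SE; limma adjusted p = 0.699), with a 95% interval from -0.17 to 0.35. CCNB1, its mitotic partner, had 581, 614 and 489.9 against 483.5, 479 and 545, with ZNF683 library 3 inside the Mock range (log2 change 0.16 ± 0.14, limma adjusted p = 0.553). CKS2, a small subunit that binds cyclin-dependent kinases, ran the other way, at 367.5, 370.4 and 496 against 641, 480.0 and 472.5. Here ZNF683 library 3 again lay among the Mock libraries and Mock library 1 was the highest of the 6 (log2 change -0.37 ± 0.18, limma adjusted p = 0.363). Cyclin A2, encoded by CCNA2, had 175 ± 19.8 against 173 ± 4.35.

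Among the entry kinases and regulators, PLK1, the Polo kinase of centrosome maturation and mitotic entry, had 246, 261 and 202 against 214, 221 and 228 (log2 change 0.09 ± 0.13, limma adjusted p = 0.746). The ZNF683 libraries lay on both sides of the Mock range. GTSE1, a G2 and S phase protein that binds microtubules and restrains p53, had 57.0, 56.0 and 50.8 against 49.4, 44.1 and 48.8 scaled TPM. Its groups did not overlap (log2 change 0.20 ± 0.11, limma adjusted p = 0.393). This held with TPM as deposited and with factors from genes of at least 1 TPM. CDCA3, an adaptor for WEE1 degradation, was the other member without overlap, at 95.6, 106 and 99.8 against 93.7, 85.3 and 86.9 (log2 change 0.18 ± 0.11, limma adjusted p = 0.419). Its groups were also apart with TPM as deposited, but not with factors from genes of at least 1 TPM. Each of these differences was under 2 times its SE.

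CENPA gave the widest spread of any member in this table. It had 15.6, 44.9 and 39.4 scaled TPM in ZNF683 libraries 1, 2 and 3 and 18.9, 16.5 and 19.0 in Mock libraries. ZNF683 library 1 was thus the lowest of the 6, while libraries 2 and 3 were the highest. The log2 change was 0.71 ± 0.34 (limma adjusted p = 0.359), with a 95% interval from -0.06 to 1.49. Without ZNF683 library 1 it passed, at a log2 change of 1.17 (limma adjusted p = 0.0296), the only member to pass when a library was left out, and without library 2 it was 0.44 (limma adjusted p = 0.736). The other centromere and kinetochore members did not share this split within the ZNF683 group: NDC80 and NUF2, subunits of the microtubule-binding NDC80 complex, had 151 ± 13.8 against 152 ± 10.1 and 161 ± 5.26 against 158 ± 7.11. CENPE had 28.8 ± 1.66 against 25.3 ± 4.72 (log2 change 0.19 ± 0.15), and CENPF 68.4 ± 7.64 against 68.2 ± 19.4. CENPA (chromosome 2, 26764289 to 26801067 in GENCODE v29 on GRCh38) overlaps SLC35F6 on the same strand. SLC35F6 had 36.8, 39.9 and 28.6 against 28.4, 36.5 and 36.8, and did not separate ZNF683 libraries 2 and 3 from the rest. How reads of the shared stretch were assigned was not tested.

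The remaining roles held no change past the threshold. Checkpoint and anaphase-promoting complex genes had 4 of 6 positive: CDC20, the activator of that complex, had 297, 329.7 and 262 against 278, 269 and 277 (log2 change 0.10 ± 0.13, limma adjusted p = 0.675). All 3 chromosomal passenger genes stood within 0.17 log2 of Mock, with BIRC5, which encodes survivin, at 201 ± 20.0 against 178 ± 4.71 (limma adjusted p = 0.478). Spindle genes had 8 of 10 positive (4 of 10 with factors from genes of at least 1 TPM), with HMMR, a spindle-pole protein, at 95.2 ± 9.68 against 81.6 ± 8.60 (limma adjusted p = 0.416). Of the 5 cytokinesis genes 5 were positive, but 2 of 5 with factors from genes of at least 1 TPM or with TPM as deposited, with ANLN, which encodes the contractile ring scaffold anillin, at 49.4 ± 5.45 against 42.5 ± 5.49 (limma adjusted p = 0.436). Of the chromosome structure genes, MKI67 had 26.7, 31.0 and 38.3 against 33.1, 19.7 and 21.5 (log2 change 0.38 ± 0.21, limma adjusted p = 0.397). TOP2A, the topoisomerase that untangles sister chromatids, had 259, 229.9 and 218 against 269, 232 and 264 (log2 change -0.12 ± 0.12, limma adjusted p = 0.634). For both genes Mock library 1 reached into the ZNF683 range or above it.

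**Figure D2:**
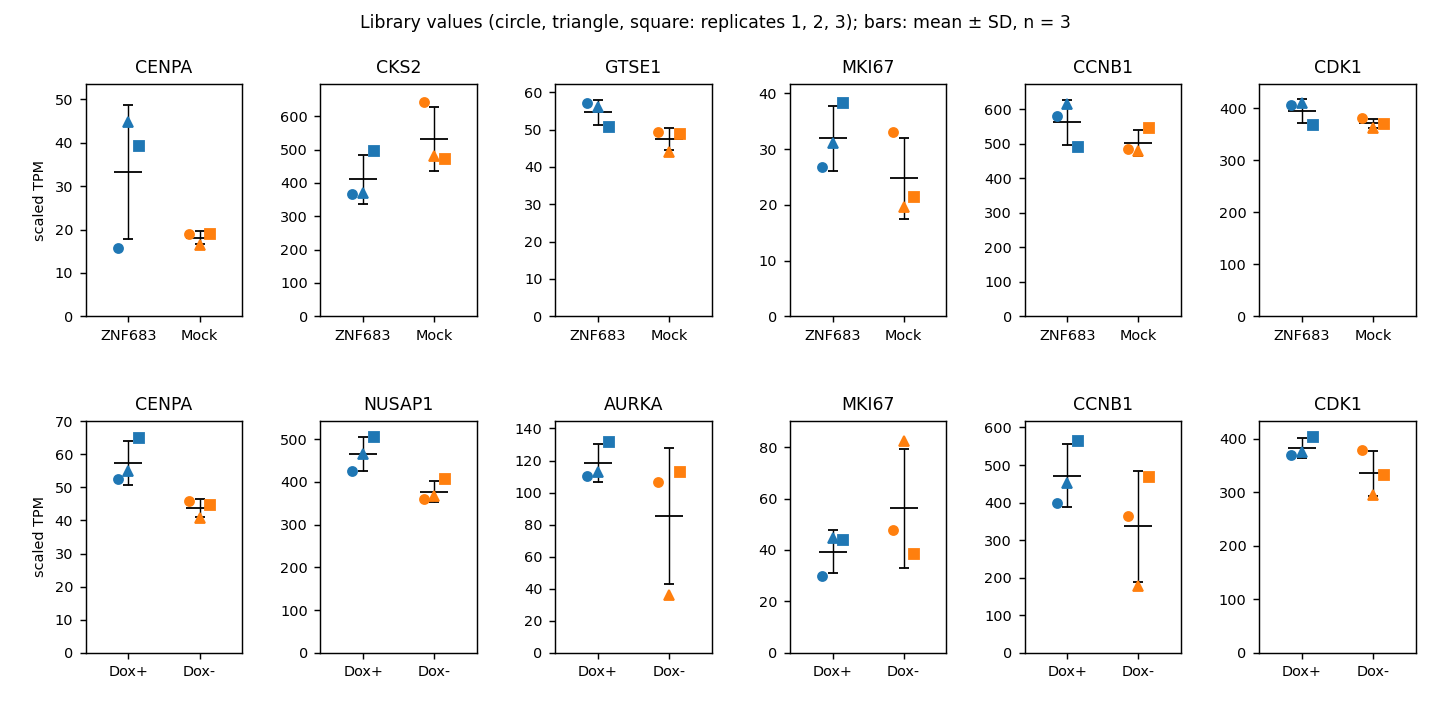
Scaled TPM of 6 members per table, by group, on axes that start at 0. Symbols mark replicates and bars the mean ± SD (n = 3). CENPA is split within the ZNF683 group, from 15.6 to 44.9, and in the lower row AURKA and CCNB1 are lowest and MKI67 highest in Dox- library 2 (triangles).

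The second comparison set Hobit cells given doxycycline against Hobit cells without it. Every library labelled as given doxycycline is titled Hobit. An effect of the drug itself therefore cannot be told apart from one of ZNF683. Again no member passed: 0 of 45 by limma adjusted p, against 0.0066% of all 15148 genes tested (1 gene), with CENPA alone at an unadjusted limma p under 0.05 (0.0475), against 3.04% of all genes (1.66% higher and 1.38% lower). Members were higher with doxycycline more often than lower, 37 against 8, with a median log2 change of 0.20 beside 0.13 over all genes, of which 64.3% were positive. The median was 0.42 beside 0.32 over all genes with TPM as deposited, and 0.052 beside 0.0018 with factors from genes of at least 1 TPM, when 26 of 45 were positive. With AL135790.1 left out and the libraries rescaled it was 0.11 beside 0.059, with 35 of 45 positive. The groups did not overlap for 12 members that were higher and 1 that was lower, where 9.34% and 3.72% of all genes did so. With those other factors the counts were 6 and 1 (5.82% and 5.86% of all genes), and with TPM as deposited 6 and 0 (7.91% and 0.891%).

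By role, all 7 engine genes, all 4 entry regulators, all 6 checkpoint genes and all 3 passenger genes were positive, with medians of 0.22, 0.42, 0.24 and 0.28. Spindle genes had 9 of 10 positive (median 0.13), kinetochore and cytokinesis genes 3 of 5 each (0.16 and 0.11), and chromosome structure genes 2 of 5 (-0.11). These counts rested on the scaling: with factors from genes of at least 1 TPM, 6 of 7 engine genes, 3 of 4 entry regulators, 5 of 6 checkpoint genes and 2 of 3 passenger genes were positive, with medians of 0.084, 0.28, 0.098 and 0.14. Spindle genes then had 4 of 10 positive, cytokinesis genes 2 of 5 and chromosome structure genes 1 of 5.

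CENPA stood higher with doxycycline: 52.5, 54.9 and 64.9 scaled TPM with doxycycline and 45.8, 40.9 and 44.6 without it. The groups did not overlap (log2 change 0.38 ± 0.16, limma adjusted p = 0.688). This held with TPM as deposited and with factors from genes of at least 1 TPM. SLC35F6, which overlaps CENPA on the same strand, had 20.5, 16.2 and 18.8 against 16.3, 5.03 and 18.3. Its groups overlapped, and it was lowest in Dox- library 2, as CENPA was. How reads of the stretch they share were assigned was not tested. UBE2C, the ubiquitin-conjugating enzyme of the anaphase-promoting complex, had 237, 229.6 and 265 against 214, 163 and 210.5 (log2 change 0.32 ± 0.17, limma adjusted p = 0.688). DLGAP5, a spindle assembly protein, had 131, 135 and 142.5 against 125.5, 86.0 and 123 (log2 change 0.30 ± 0.19, limma adjusted p = 0.688). For these 2 genes as well the groups were apart, also under the same alternative scalings. NUSAP1 had 426.5, 464.5 and 505 against 359, 366 and 406 (log2 change 0.30 ± 0.15, limma adjusted p = 0.688). Its groups were also apart with TPM as deposited, but not with factors from genes of at least 1 TPM. CDCA8, which encodes borealin of the passenger complex, had 117, 116 and 125 against 99.8, 64.7 and 111 (log2 change 0.41 ± 0.22, limma adjusted p = 0.688). GTSE1 had 43.3, 44.3 and 44.0 against 38.1, 22.4 and 41.8 (log2 change 0.40 ± 0.25, limma adjusted p = 0.688). Its groups were apart here, but not with TPM as deposited or with factors from genes of at least 1 TPM. GTSE1 was the 1 member of 45 whose groups did not overlap in both comparisons, higher with ZNF683 and higher with doxycycline. Of all genes, 11.8% were apart and higher with ZNF683 and 9.34% with doxycycline. The share of all genes apart and higher in both was not computed, so this count has no background. Among the members given with values here, Dox- library 2 was the lowest of the 6 libraries for each except NUSAP1, for which Dox- library 1 was. The other 6 members apart and higher were CCNB2, CCNA2, CDC25C, BUB1B, TPX2 and TACC3, with log2 changes from 0.21 to 0.35.

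**Figure D3:**
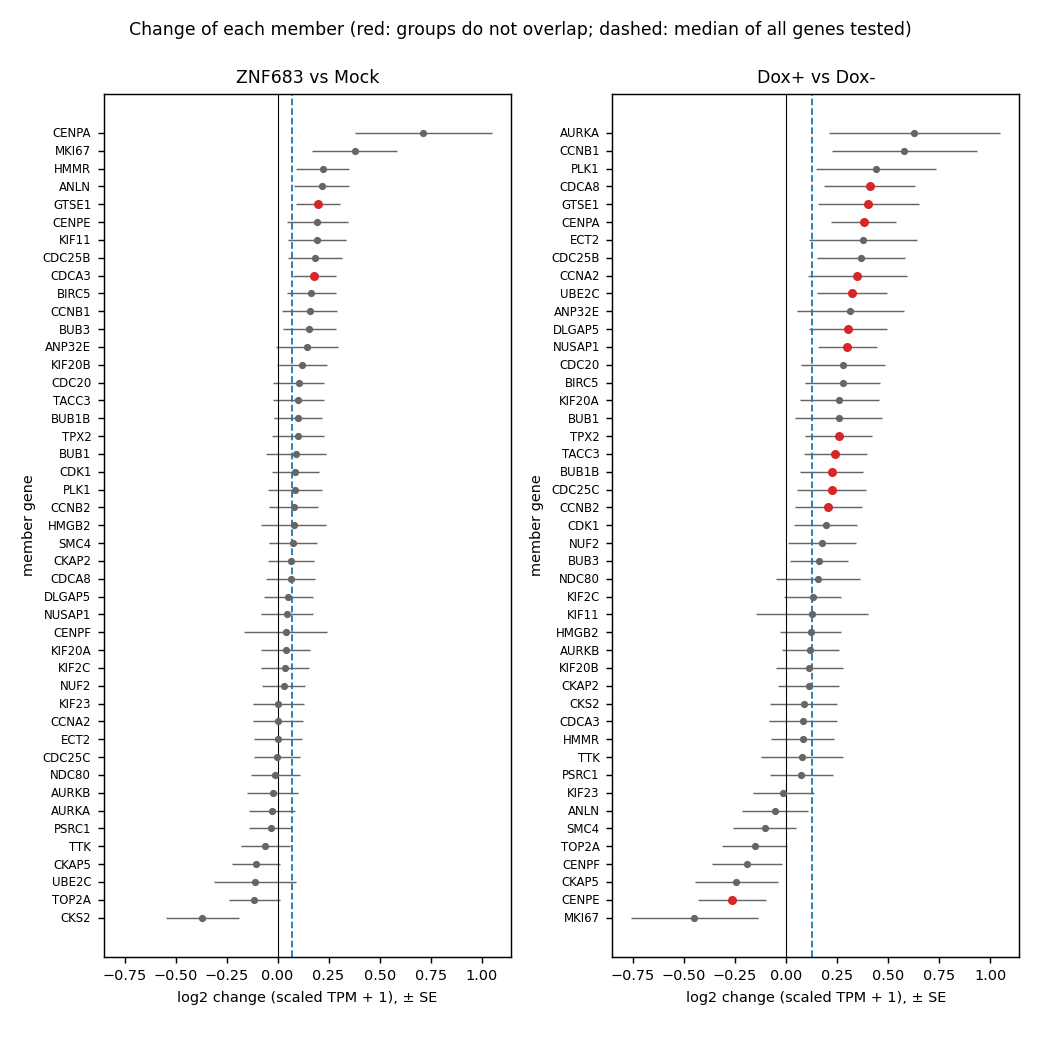
Log2 change ± SE of each member, sorted, with the ZNF683 comparison on the left and doxycycline on the right. Red points mark members whose groups did not overlap (2 and 13) and the dashed line the median of all genes tested (0.072 and 0.13). Changes run from -0.37 (CKS2) to 0.71 (CENPA) on the left and from -0.45 (MKI67) to 0.63 (AURKA) on the right.

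The mean differences of AURKA, CCNB1 and PLK1, the largest positive ones among the members, rested in large part on Dox- library 2. AURKA, the kinase of spindle poles, had 110.4, 113 and 132 scaled TPM with doxycycline and 106, 36.4 and 113 without it. Dox- libraries 1 and 3 were thus close to the lower Dox+ libraries, and Dox- library 2 had 0.317 of the mean of the other 5 (log2 change 0.63 ± 0.42, limma adjusted p = 0.688). CCNB1 had 398, 453 and 563.5 against 365, 178 and 467, with Dox- library 2 at 0.396 of the other 5 and Dox- library 3 above 2 Dox+ libraries (log2 change 0.58 ± 0.35, limma adjusted p = 0.688). PLK1 had 156, 155 and 186 against 141, 76.4 and 165 (log2 change 0.44 ± 0.29, limma adjusted p = 0.688). CDC25B, a phosphatase that activates CDK1, had 72.1, 72.7 and 80.7 against 61.2, 43.6 and 73.0 (log2 change 0.37 ± 0.21, limma adjusted p = 0.688). CDC20 had 174, 193 and 236 against 136, 161 and 201 (log2 change 0.28 ± 0.20, limma adjusted p = 0.688), with Dox- library 1 the lowest. CDK1 had 369, 375.5 and 404 against 379.6, 295 and 332 (log2 change 0.20 ± 0.15, limma adjusted p = 0.688). Without Dox- library 2 the member median was 0.11 beside 0.038 over all genes, and 18 members were apart and higher (13.2% of all genes), against 2 lower (6.78%). Groups separate more easily with fewer libraries. With all 6 libraries the shares of all genes were 9.34% and 3.72%, so the rise in members is not a measure of that library alone.

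Ki-67 went against the cyclins in that library. MKI67 had 29.8, 44.5 and 43.7 scaled TPM with doxycycline and 47.6, 82.5 and 38.4 without it, so Dox- library 2 had 2.02 times the mean of the other 5 (log2 change -0.45 ± 0.31, limma adjusted p = 0.688). TOP2A had 212.5, 242 and 216 against 245.5, 282.5 and 221 (log2 change -0.15 ± 0.16, limma adjusted p = 0.692; 0.071 with TPM as deposited). CENPE, a kinetochore motor, was the member apart and lower, at 27.7, 28.6 and 29.9 against 33.6, 40.5 and 30.7. CENPF, another large kinetochore protein, had 73.7, 93.8 and 89.1 against 90.6, 111.5 and 91.1. All 4 were highest in Dox- library 2, in which CCNB1, AURKA and PLK1 were lowest. CENPE was also apart and lower without that library. Relative to the median member, MKI67, TOP2A, CENPE and CENPF were at -0.76, -0.22, -0.27 and -0.41 log2 in Dox+ library 1. In Dox+ library 3 they were at -0.30, -0.38, -0.33 and -0.27. MKI67 was at -0.28 in Dox- library 3.

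Set against the median member, which no scaling factor can change by much, Dox- library 2 ran from -1.29 log2 for AURKA to 1.35 for MKI67. In it 15 members lay more than 0.5 log2 from the median member, against 0 to 2 in each of the other 11 libraries of both tables. The SD of the 45 differences was 0.50 there and 0.11 to 0.20 in the other 11. Described after these values were seen, the 5 members with the longest coding transcripts, MKI67, CENPF, CENPE, BUB3 and CKAP5 (12678, 10307, 8612, 7828 and 7121 nt), all stood above the median member in this library. CKAP5 encodes a microtubule polymerase. The Spearman correlation of difference with transcript length was 0.28 over the 45 members and 0.20 over 10940 coding genes tested. Over the members it ran as far as -0.58 (Dox+ library 1) and 0.47 (Mock library 3) in other libraries. It was also -0.57 in Mock library 2 and -0.49 in Dox+ library 3. A relation with length was thus not particular to Dox- library 2. These are correlations across genes of 1 library, given as a description.

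**Figure D4:**
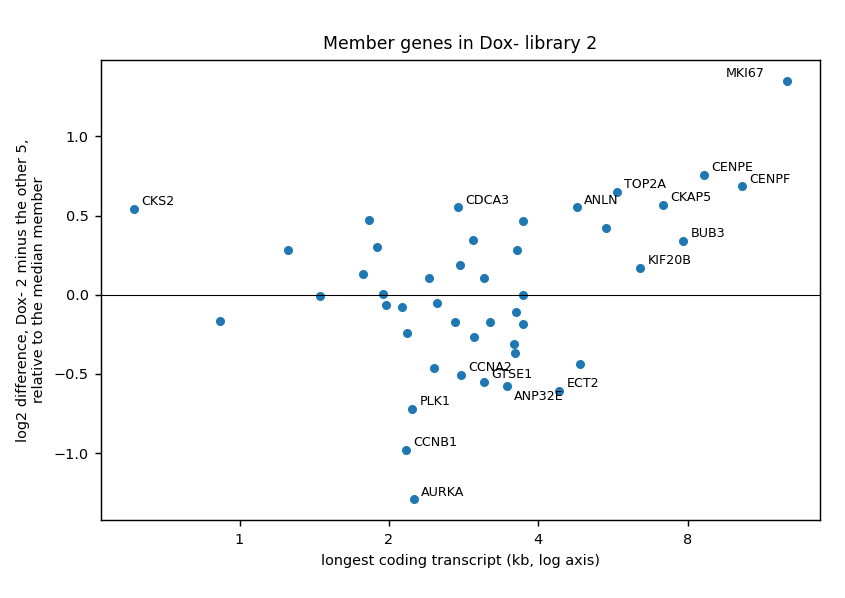
Each point is a member gene in Dox- library 2: its log2 difference from the mean of the other 5 libraries of the table, relative to the median member, against its longest coding transcript in GENCODE v29 (log axis). AURKA (-1.29) and CCNB1 (-0.98) lie at the bottom and MKI67 (1.35) at the top right.

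S phase genes stood lower than mitotic genes in that library. The 28 genes of DNA replication listed for comparison had a median difference of -0.90 log2 from the other 5 libraries, beside -0.34 for the 45 members and -0.27 for all genes tested. Dox- library 2 was the lowest of the 6 for 24 of the 28 S phase genes, for 25 of the 45 members and for 52.2% of all genes. It was also the highest for 8 members, and for 25.3% of all genes. With factors from genes of at least 1 TPM the 3 medians were -0.58, -0.014 and 0.014, so the shift of the mitotic genes as a whole in this library rested on the scaling, while that of the S phase genes stayed negative, with 20 of 28 lowest. As deposited, the low library was Dox- library 1 instead, the lowest for 44 of 45 members and for 75.2% of all genes. The part of T lineage marker level in these values was not tested.

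**Figure D5:**
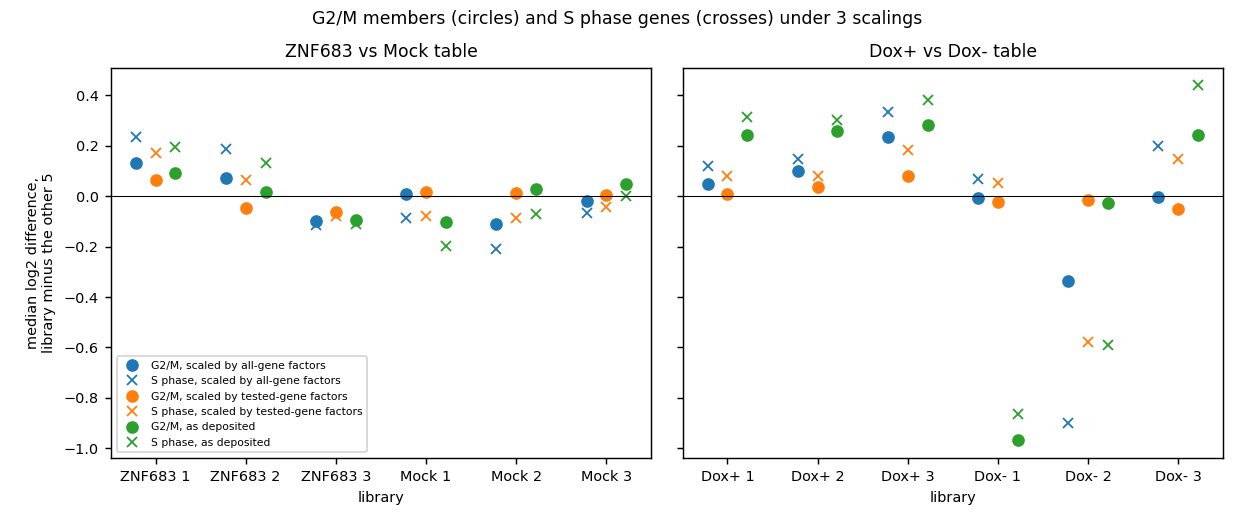
Median log2 difference of each library from the other 5 of its table, for the 45 members (circles) and 28 S phase genes (crosses), under 3 scalings. In Dox- library 2 the members move from -0.34 to -0.014 with the choice of factors while S phase genes stay at -0.58 or lower. In Dox- library 1 only TPM as deposited is low.

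The 2 comparisons were set side by side, since they share no library. Of the 45 members 31 had the same sign in both (29 positive, 2 negative), against 68.3% of the 14468 genes tested in both tables. The difference between the effects was tested as a contrast over all 12 libraries. No member passed (smallest limma adjusted p = 0.983), and none had an unadjusted limma p under 0.05, against 3.3% of all genes, of which 0.00691% passed (1 gene).

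The other genes of the mitotic pathway gave no call in either comparison. The counts of positive genes below are to be read beside those over all genes tested, 61.9% positive with ZNF683 and 64.3% with doxycycline. Of 31 further kinetochore and centromere genes, 23 were positive with ZNF683 and 27 with doxycycline. KNTC1, which encodes the ROD subunit of the checkpoint's RZZ complex, had 39.3, 41.5 and 39.6 scaled TPM in ZNF683 libraries and 55.8, 76.2 and 58.6 in Mock libraries, without overlap (log2 change -0.64 ± 0.14, limma adjusted p = 0.234). SPC24, the partner of NDC80 and NUF2, had 79.8, 85.2 and 84.5 against 124, 159 and 101, also without overlap (log2 change -0.59 ± 0.16, limma adjusted p = 0.277). Of 26 further spindle and cytokinesis genes tested, 21 and 23 were positive. PIMREG, a mitotic regulator, was apart and higher in both comparisons, at 68.8, 74.0 and 63.8 against 59.4, 56.0 and 55.1 with ZNF683 and at 40.9, 41.1 and 42.0 against 30.0, 17.2 and 35.9 with doxycycline. KNTC1, SPC24 and PIMREG were named because their p was among the 2 smallest of their list, which favours groups that are apart. The share of all genes apart and higher in both comparisons was not computed. Condensin and cohesin genes had 15 and 10 of 17 positive, and further anaphase-promoting complex and separase genes 15 and 21 of 23. Of 17 regulators of mitotic genes, 14 were positive in each comparison. TFDP1, the dimer partner of E2F factors, had 50.6, 55.8 and 48.4 against 40.0, 37.4 and 43.9 with ZNF683 (log2 change 0.34 ± 0.11, limma adjusted p = 0.3001). S phase genes had 26 of 28 positive with ZNF683 (median 0.21) and 25 of 28 with doxycycline (median 0.30), again with none past the threshold. With factors from genes of at least 1 TPM these counts were lower: 19 and 20 of 31 kinetochore genes, 15 and 17 of 26 spindle genes, 14 and 8 of 17 condensin and cohesin genes, 14 and 15 of 23 anaphase-promoting complex genes, 12 and 10 of 17 regulators, and 23 and 21 of 28 S phase genes were positive. The shares of 61.9% and 64.3% were not computed with these factors, so they are no background for these lower counts. With these factors the median change over all genes tested was -0.00037 with ZNF683 and 0.0018 with doxycycline.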

How the data were processed

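Per the submitters' processing notes, kallisto 0.46.0 and DESeq2 1.22.2 were used, with no role given; per the labels' protocols, a Qiagen RNeasy kit gave total RNA for NEBNext single-cell/low input libraries. The authors deposited 2 tables of TPM per gene symbol. Build and transcript set are not given in the sources used here. Deposited TPM were divided here by median-of-ratios factors from genes above 0 in all 6 libraries of a table, because 1 RNA took 50.7% of Dox- library 1. Genes averaging 1 TPM or more were tested on log2(scaled TPM + 1), pseudocount 1, which understates changes of low genes, with limma 3.58.1 in R 4.3.3 (mean-variance trend, two-sided, Benjamini-Hochberg over all genes tested, threshold 0.05), within each table. The procedure was tested on simulated data. Members and lists were chosen with earlier results of these data known. Library values are given for members past the threshold, the 8 with the smallest p per comparison and 6 fixed genes (CDK1, CCNB1, MKI67, TOP2A, PLK1 and CDC20). Of these, HMMR, ANLN and BIRC5 in the ZNF683 comparison are given as mean ± SD only. Other genes named with values were chosen after their values were seen. Of the other lists, the 2 genes with the smallest p may be named. Antisense genes overlap 16 members and pseudogenes of their own name exist for 11 in GENCODE v29, so those values are uncertain. Replicate numbers were not used as pairs, since the labels do not say that they mark a shared culture. Not every same-numbered pair deviated together. Alternatives were TPM as deposited, AL135790.1 left out, other factors, a pseudocount of 0.1, no filter, robust limma, a replicate block and leaving out each library.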

Additional observations from a re-analysis of the deposited data

How the results depend on the processing

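The member count stayed at 0 of 45 under every alternative but 1: without ZNF683 library 1 it was 1 (CENPA), so it ran from 0 to 1 over left-out libraries in that comparison. Counts over all genes were small and unstable. For ZNF683 against Mock, 7 genes became 3 with a pseudocount of 0.1, 0 with no filter (4198 at an unadjusted limma p under 0.05), 11 with robust limma and 12 with the replicate block, and 0 (without Mock library 2) to 59 (without ZNF683 library 1) over left-out libraries. For doxycycline, 1 gene became 60 with TPM as deposited, and 0 with no filter, with the replicate block, without AL135790.1 and with factors from genes of at least 1 TPM (1458, 556, 472 and 469 at an unadjusted limma p under 0.05), and 0 to 2 over left-out libraries. The replicate block gave 0 members in both comparisons; deviations of same-numbered libraries correlated at -0.20, 0.05 and -0.25 for ZNF683 and at 0.0086, 0.074 and 0.38 for doxycycline, so Dox+ 3 and Dox- 3 deviated together but not every pair passed 0.1, and not every library correlated best with its own number. The member median, 0.079 and 0.20, became -0.0054 and 0.052 with factors from genes of at least 1 TPM, an alternative added after seeing the data, and 0.42 for doxycycline with TPM as deposited. TOP2A turned from -0.15 to 0.071 for doxycycline with TPM as deposited. Counting each gene under each alternative, 723 values of genes named with a test kept their direction and side of the threshold. Of the values of the other members, 759 moved by less than the spread between replicates and 41 by more, and 22 of the list and count values moved. The cause of these shifts was not tested. TPM holds no read depth, so the precision of low genes such as CENPA cannot be set from counts.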

Other observations

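Genes that set the pace before mitosis were read beside the members. CDKN2C, which encodes the CDK4 and CDK6 inhibitor p18, was apart and higher in both comparisons: 46.5, 98.8 and 77.7 scaled TPM in ZNF683 libraries against 46.3, 37.8 and 40.9 in Mock libraries (log2 change 0.76 ± 0.25, limma adjusted p = 0.292), and 83.7, 92.8 and 94.8 with doxycycline against 67.3, 40.1 and 64.7 without it (log2 change 0.68 ± 0.23, limma adjusted p = 0.688). CDKN2C was named because its p was among the 2 smallest of its list in each comparison, which favours groups that are apart. Its list did not move as it did: of 13 inhibitors of the cycle tested, 12 were positive with ZNF683 but 5 with doxycycline (median -0.035). With factors from genes of at least 1 TPM, 8 and 3 of 13 were positive. Of all genes, 11.8% were apart and higher with ZNF683 and 9.34% with doxycycline, and the share in both was not computed. ZNF683 library 1 lay next to Mock library 1 for CDKN2C, as it lay below the Mock libraries for CENPA. CCNE1, which encodes cyclin E1 of the G1 to S transition, had 9.11, 13.04 and 9.77 against 6.96, 6.21 and 7.14 with ZNF683 (log2 change 0.57 ± 0.15, limma adjusted p = 0.258). CCND3, which encodes a D-type cyclin, had 449, 429 and 448 with doxycycline against 297, 223 and 327 (log2 change 0.66 ± 0.18, limma adjusted p = 0.688). CCNE1 and CCND3 were likewise named because their p was among the 2 smallest of their list. All 7 tested G1 cyclins and kinases were positive with ZNF683 and 6 of 7 with doxycycline (7 and 5 of 7 with factors from genes of at least 1 TPM), none past the threshold. Over all genes tested, 61.9% and 64.3% were positive, shares that were not computed with those other factors. With those factors the median change over all genes tested was -0.00037 and 0.0018.

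Single libraries held values far from the rest. STAG2, a cohesin subunit gene, reached 3628 scaled TPM in Dox- library 1, beside 249 to 454 elsewhere in that table. GADD45B, a stress-induced growth arrest gene, reached 113 scaled TPM in Dox- library 2, beside 4.53 to 6.04 elsewhere in that table.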
